A study of Mus musculus with 18 samples.

Results

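Regulatory T (Treg) cells and Foxp3-negative effector T (Teff) cells were compared within mice of the strain Foxp3DTR that had received diphtheria toxin (DT). The comparison holds the 5 arrays titled aTreg and the 5 arrays titled Teff, 10 of the 18 arrays of the series, and it covers all 45037 probe sets that are not array controls. Each array was hybridised with total RNA of CD4 T cells from spleen and lymph nodes of mice of 6 to 8 weeks, which had been enriched on CD4 beads and sorted on GFP in 2 rounds. The Foxp3DTR allele places a receptor for diphtheria toxin, joined to green fluorescent protein, under the Foxp3 gene's control. The toxin therefore strikes Treg cells, and the mice become inflamed. Both groups carried this allele and both had received the toxin, so the comparison sets 1 cell type against the other in treated mice and measures no effect of the toxin itself. The Treg arrays are labelled as Foxp3-positive cells. The labels do not say whether these outlived the toxin or arose after it, nor give the toxin's dose, the interval to harvest, the sex of the mice, or how many animals gave the RNA of an array. All p-values therefore measure only the spread between these arrays, which may be technical.

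Treg cells are CD4 T cells that restrain immune responses through Foxp3, a transcription factor that binds enhancers already open in T cells. They take up interleukin-2 (IL-2) through a receptor of high affinity, make little IL-2 of their own, and carry inhibitory receptors such as Ctla4 at high level. In an inflamed animal they can become effector Treg cells, which divide, leave the naive state and make molecules such as Il10 and granzyme B. Teff cells of mice that have lost Treg cells divide as well, secrete cytokines and help B cells.

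Levels are the deposited log2 values, on which a difference of 1 is a doubling, and differences are given as Treg minus Teff with their standard error (written as value ± SE). A probe set or gene was called where limma gave a Benjamini-Hochberg adjusted p under 0.05 over all probe sets, and the words higher and lower are kept for called genes. A gene is represented by its brightest probe set, and a level under the overall median of 4.09 is described as dim, since a fold change is compressed there. 3 arrays stood apart from the rest of their group. The mean correlation with the other arrays of the group was 0.9812 for Treg array 4, 0.9722 for Teff array 4 and 0.9768 for Teff array 5, against 0.9863 to 0.9923 for the other 7. Teff array 5 correlated as strongly with the Treg arrays (mean 0.978) as with its own group.

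The label Treg was checked first on Foxp3 itself, which has 1 named probe set. Foxp3 measured 3.15, 3.22, 3.11, 3.43 and 3.17 on Treg arrays 1 to 5 and 3.10, 2.97, 3.36, 3.13 and 3.40 on Teff arrays 1 to 5. The probe set was dim on all 10 arrays, the groups overlapped, and their difference of 0.025 gave an exact two-sided permutation p of 0.778 over all splits of the arrays into 5 and 5, where 0.00794 is the smallest this design allows (limma adjusted p = 0.946). Foxp3 thus did not separate the arrays by their label, and whether this probe set reads the transcript of the modified allele was not tested. The groups are called Treg and Teff after their labels. Of the 10 measured T cell markers, the list mean lay between 11.23 and 11.42 on the Treg arrays and between 11.26 and 11.57 on the Teff arrays, with Cd4 at 7.70 to 7.94 and 7.86 to 8.40 and Cd3e at 10.28 to 10.68 and 10.08 to 10.73.

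Over the whole array, 3052 of 45037 probe sets were called (6.78%), of which 1739 were higher in Treg (3.86%) and 1313 lower (2.92%). With 1 probe set per gene, 1854 of 20792 genes were called (8.92%), 1060 higher in Treg cells (5.1%) and 794 lower (3.82%). Of the called genes, 1044 have more than 1 probe set. In 492 of these another probe set was called the same way, and in 0 the opposite way. A change of at least 2-fold was reached by 387 of the higher genes (1.86% of all) and 275 of the lower genes (1.32%). In 1098 genes (5.28%) every Treg array lay above every Teff array, and in 866 (4.17%) every Treg array lay below. Past 4-fold the balance turned, with 39 genes higher and 65 lower. The plot of difference against level shows this: the falls run deeper than the rises. The spread was wider among the Teff arrays, with a median standard deviation over genes of 0.231 against 0.173 among the Treg arrays.

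**Figure D1:**
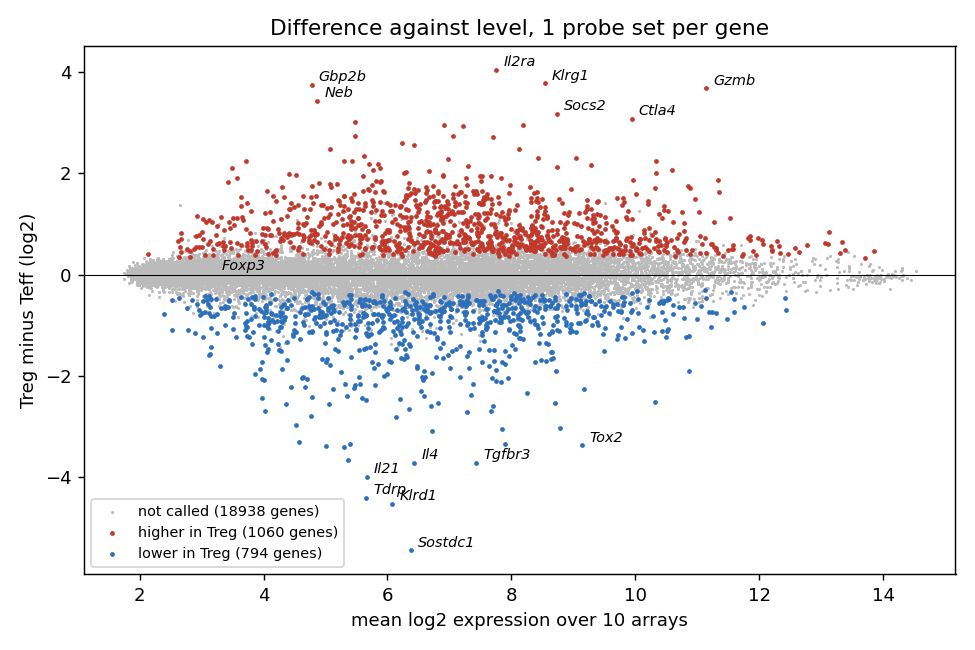
Treg minus Teff difference (log2) against the mean log2 level over the 10 arrays for 20792 genes, 1 probe set each. Red points are the 1060 genes higher in Treg, blue the 794 lower and grey the rest. Il2ra, Klrg1 and Gbp2b lead the rises and Sostdc1, Klrd1 and Tdrp the falls, while Foxp3 lies at 0.02.

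The largest rise among all genes was that of an interleukin-2 receptor gene, and the cytokine's own gene was among the largest falls. Il2ra, the alpha chain that gives the receptor its high affinity, measured 9.78, 9.64, 10, 10 and 9.48 on the Treg arrays and 5.83, 5.15, 6.12, 6.34 and 5.27 on the Teff arrays. Il2 measured 2.90, 2.94, 3.09, 2.95 and 2.68 on the Treg arrays and 6.28, 6.13, 6.74, 6.03 and 5.92 on the Teff arrays. Neither gene overlapped between the groups, and Il2 was dim on every Treg array while no Teff array was dim. Il2ra was higher by 4.04 ± 0.222 (adjusted p = 9.37e-07) and Il2 lower by 3.31 ± 0.149 (adjusted p = 2.13e-07).

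The receptor's beta chain Il2rb was higher as well (1.52 ± 0.189), whereas the common gamma chain Il2rg differed by 0.23 ± 0.12 without a call. Socs2, a brake on cytokine signals, measured 10.41, 10.08, 10.55, 10.28 and 10.27 on the Treg arrays and 7.28, 6.95, 7.34, 7.59 and 6.59 on the Teff arrays. Its lowest Treg array lay far above its highest Teff array, and the difference was 3.17 ± 0.173 (adjusted p = 9.3e-07). Cish, of the same family, was higher by 1.69 ± 0.142, while Stat5a (0.02 ± 0.259) and Stat5b (0.01 ± 0.159) were not called. Il7r, the receptor chain for the survival cytokine interleukin-7, was lower (-1.07 ± 0.2), as were the T cell cytokines Il4 and Il21 that signal through the same gamma chain. In all, the list of IL-2 and gamma chain genes held 5 higher and 4 lower of 21 measured.

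**Figure D2:**
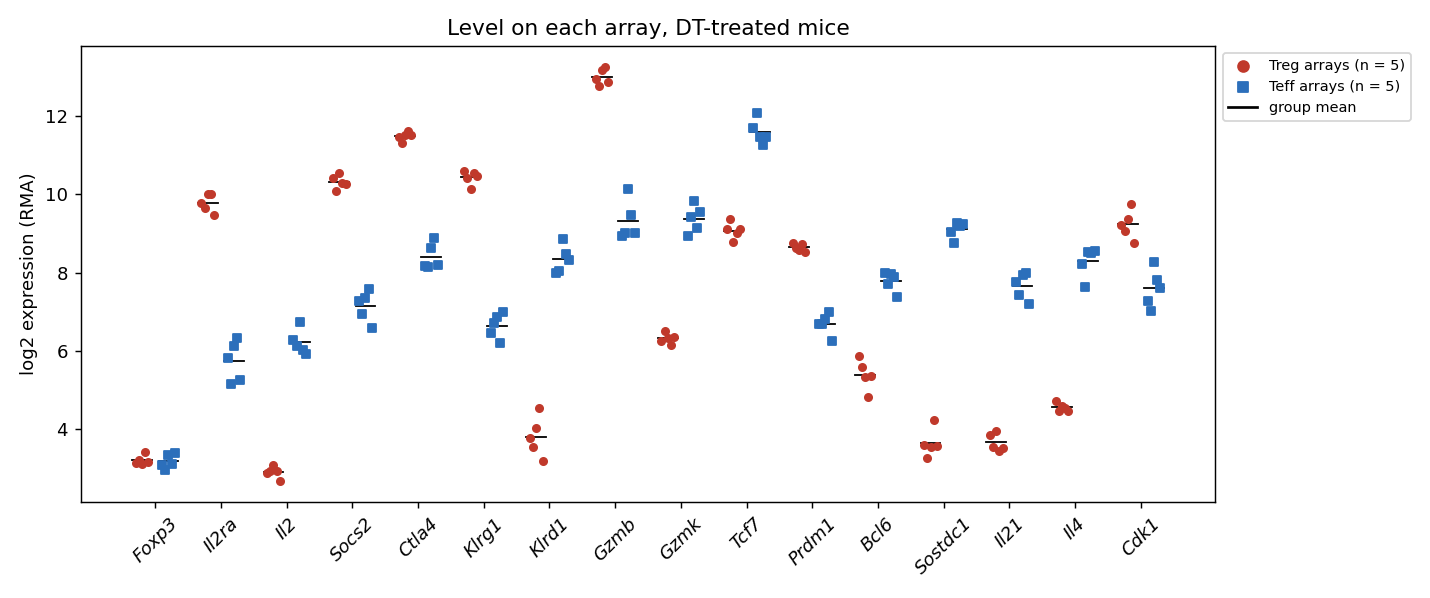
Log2 level (vertical axis) of 16 genes on each of the 10 arrays, with Treg arrays as red circles, Teff arrays as blue squares and the group mean as a black line. Il2ra and Il2 run opposite ways, as do Klrg1 and Klrd1, and Gzmb and Gzmk, while Foxp3 is dim on all arrays of both groups.

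Of 20 measured receptors of the Treg surface, 16 were higher and none was lower, with a median difference of 1.44 against 0.028 over all genes. The list was drawn from what is known of Treg cells and with earlier results of these data in view. Ctla4, which strips costimulatory ligands from antigen-presenting cells, measured 11.46, 11.30, 11.51, 11.62 and 11.51 on the Treg arrays and 8.17, 8.14, 8.62, 8.89 and 8.20 on the Teff arrays. All Treg arrays lay above all Teff arrays, by 3.08 ± 0.15 in the mean (adjusted p = 4.13e-07). Gpr83, a peptide receptor found on Treg cells, was higher by 2.93 ± 0.188, and Itgae, the integrin chain that binds E-cadherin on epithelium, by 2.24 ± 0.149. Entpd1, the ectoenzyme that starts the breakdown of extracellular ATP to adenosine, was higher by 1.75 ± 0.108, whereas Nt5e, which completes it, differed by 0.29 ± 0.158. Nrp1, a neuropilin used as a mark of Treg cells made in the thymus, differed by 0.00 ± 0.186, and Itgb8, an integrin chain that activates TGF-beta, by 0.46 ± 0.279, neither of them called.

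In the TNF family, costimulatory receptors were higher in Treg cells and several ligands lower. The list of 20 measured genes held 6 higher and 5 lower. Tnfrsf9, also named 4-1BB, was higher by 2.48 ± 0.157, Tnfrsf1b, the second TNF receptor, by 2.16 ± 0.213, Tnfrsf4, also named OX40, by 1.86 ± 0.154, and Tnfrsf18, also named GITR, by 1.63 ± 0.132. On the ligand side, Tnfsf14 measured 4.73, 4.97, 4.95, 4.34 and 4.65 on the Treg arrays and 7.74, 7.02, 7.97, 7.62 and 7.36 on the Teff arrays. Its groups did not overlap, and it was lower by 2.81 ± 0.181 (adjusted p = 2.81e-06). Tnfsf8, the ligand of CD30, was lower by 2.53 ± 0.269, Fasl, which triggers death through Fas, by 1.51 ± 0.118, and Tnfsf11, also named RANKL, by 1.5 ± 0.157. These ligands bind receptors other than those just named. The ligands of Tnfrsf4 and Tnfrsf9, which are Tnfsf4 (-0.25 ± 0.117) and Tnfsf9 (-0.39 ± 0.111), and Cd40lg, the helper signal to B cells (-0.26 ± 0.11), were not called.

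The CD28 family held 5 higher and 3 lower of 17, or 5 lower without Teff array 5. Icos was higher (0.72 ± 0.122), as was Havcr2, also named TIM-3 (1.37 ± 0.262), and so was Pdcd1lg2, a ligand of PD-1 (1.19 ± 0.151). Pdcd1, the gene of PD-1 itself, measured 7.09, 7.12, 7.02, 6.40 and 7.27 on the Treg arrays and 8.60, 8.64, 8.93, 8.19 and 9.19 on the Teff arrays. It was lower by 1.73 ± 0.2 (adjusted p = 0.000253), with no overlap, and Treg array 4 had its lowest level. Cd160 (-1.05 ± 0.135) and Cd96 (-0.99 ± 0.131) were lower too, and Cd28 (-0.15 ± 0.15) and Lag3 (0.26 ± 0.186) were not called.

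Mediators of suppression and repair were higher in 13 of 20 cases and lower in none, with a median of 1.20. Gzmb, a protease of cytotoxic granules that Treg cells also use, measured 12.93, 12.76, 13.16, 13.25 and 12.86 on the Treg arrays and 8.93, 9.02, 10.14, 9.47 and 9.02 on the Teff arrays. Every Treg array exceeded every Teff array, and the mean difference was 3.68 ± 0.215 (adjusted p = 1.36e-06). Il10, a suppressive cytokine, was higher by 1.73 ± 0.24, Ebi3, a subunit of interleukin-35 and interleukin-27, by 1.33 ± 0.165, and Fgl2, a secreted suppressor of dendritic cells, by 1.97 ± 0.185. Areg, the growth factor amphiregulin through which Treg cells promote tissue repair, was higher by 1.29 ± 0.165. Mmp9, a gelatinase, measured 7.22, 7.38, 6.81, 6.11 and 7.41 on the Treg arrays and 3.75, 3.90, 3.88, 3.92 and 4.36 on the Teff arrays. Il12a, the partner of Ebi3 in interleukin-35, differed by -0.06 ± 0.114, Tgfb1 by 0.63 ± 0.205 and Prf1, the perforin that delivers granzymes, by -0.54 ± 0.17, without a call. Il12a was dim in both groups.

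Among transcription factors, the Ikaros family parted. Ikzf2 (Helios) measured 11.16, 11.15, 11.27, 11.96 and 11.13 on the Treg arrays and 9.55, 9.06, 9.29, 10.10 and 8.61 on the Teff arrays. Treg array 4 was highest of all, and no Teff array reached the lowest Treg array. Ikzf2 was higher by 2.01 ± 0.254, Ikzf4 (Eos) by 1.91 ± 0.116 and Ikzf3 (Aiolos) by 1.25 ± 0.113, and Ikzf1 (Ikaros), the founding member, was lower (-0.88 ± 0.101). A less bright probe set of Ikzf1 differed by -0.37 without a call (adjusted p = 0.192). Partners and inducers of Foxp3 such as Runx1 (-0.37 ± 0.197), Cbfb (-0.08 ± 0.145) and Nfatc2 (-0.16 ± 0.0845) were not called, and Nfatc1 was lower (-0.62 ± 0.114). The list of Treg lineage factors held 4 higher and 2 lower of 18.

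Factors of effector Treg cells did not move as a block, with 4 higher and 4 lower of 16. Prdm1 (Blimp-1), which Treg cells need to make Il10, measured 8.76, 8.62, 8.57, 8.72 and 8.53 on the Treg arrays and 6.70, 6.69, 6.82, 7 and 6.26 on the Teff arrays. It was higher by 1.94 ± 0.13 with no overlap (adjusted p = 3.81e-06), alongside Nfil3 (0.89 ± 0.16), Irf4 (0.77 ± 0.0896) and Batf (0.51 ± 0.101). Lower in Treg cells were Epas1, the hypoxia factor HIF-2 alpha (-2.05 ± 0.199), Vdr, the vitamin D receptor (-1.53 ± 0.119), Id2, an inhibitor of E proteins (-1.21 ± 0.166), and Bhlhe40 (-1.10 ± 0.124). Maf (0.16 ± 0.212) and Gata3 (-0.15 ± 0.195), found in effector Treg cells of tissues, were not called.

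Factors of the naive and resting state were lower in Treg cells in 8 of 20 cases and higher in none. Tcf7 (TCF-1), a factor of naive, memory and follicular helper T cells, measured 9.10, 9.37, 8.77, 9.01 and 9.10 on the Treg arrays and 11.68, 12.07, 11.46, 11.26 and 11.46 on the Teff arrays. It was lower by 2.52 ± 0.157 (adjusted p = 2.3e-06) with no overlap. Lef1, its relative, was lower by 1.11 ± 0.166, Bach2, which holds back effector genes, by 1.12 ± 0.211, and Btg1, an antiproliferative gene, by 0.69 ± 0.11. Klf2, which drives the genes of recirculation (-0.41 ± 0.166), and Foxo1, which maintains Il7r (0.18 ± 0.198), were not called.

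Follicular helper T (Tfh) cells, the CD4 cells that guide B cells in germinal centres, also express Tcf7. Their list had the lowest median of the 42 lists. Of 23 measured Tfh genes, 12 were lower and 2 higher, with a median of -1.02. Sostdc1, a secreted antagonist of BMP and Wnt signals, had the deepest fall of all genes: it measured 3.61, 3.28, 3.56, 4.25 and 3.59 on the Treg arrays and 9.04, 8.75, 9.27, 9.20 and 9.24 on the Teff arrays. Treg arrays 1, 2, 3 and 5 were dim and Treg array 4 was just above the median, while the lowest Teff array stood far above them, a difference of -5.44 ± 0.17 (adjusted p = 2.01e-08).

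Bcl6, the factor that commands the Tfh fate, measured 5.87, 5.58, 5.33, 4.84 and 5.37 on the Treg arrays and 8.00, 7.71, 7.96, 7.89 and 7.39 on the Teff arrays. Tox2, which acts with it, was lower by 3.37 ± 0.191, Ascl2, which induces the follicle receptor Cxcr5, by 1.46 ± 0.219, and Cxcr5 itself by 1.35 ± 0.149. Il21, the cytokine by which Tfh cells drive B cells, measured 3.85, 3.56, 3.97, 3.45 and 3.53 on the Treg arrays and 7.76, 7.43, 7.95, 7.99 and 7.19 on the Teff arrays. Bcl6 (-2.39 ± 0.183) and Il21 (-3.99 ± 0.17) did not overlap between groups, and Il21 was dim on 5 of 5 Treg arrays. Pou2af1, a coactivator known best from B cells, was lower by 3.09 ± 0.2, with Treg array 4 the highest of the Treg arrays. Exceptions on the list were Matn2, an extracellular matrix protein that was higher (1.79 ± 0.178), and Icos, and Sh2d1a (0.14 ± 0.123) and Maf were not called. In bulk RNA, fewer cells of a type and less RNA of these genes per cell cannot be told apart.

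Of 19 effector T cell cytokines 6 were lower and 2 higher, with 1 to 3 higher when 1 array was left out. Il4 measured 4.72, 4.48, 4.6, 4.56 and 4.46 on the Treg arrays and 8.21, 7.64, 8.52, 8.51 and 8.55 on the Teff arrays. Il4 was lower by 3.72 ± 0.165 (adjusted p = 2.13e-07) with no overlap, Il3, a growth factor of myeloid cells, by 2.07 ± 0.241, Tgfb3 by 1.28 ± 0.142 and Csf2 (GM-CSF) by 0.83 ± 0.161. Ifng (-0.65 ± 0.188) and Il6 (-0.38 ± 0.12) were not called, nor were Il5 (-0.25 ± 0.143) and Il9 (0.18 ± 0.0982). Il5 and Il6 were dim in both groups. Il10, described above, was higher.

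Secreted chemokines were lower as well, in 5 of 16 cases with none higher. Ccl1, a ligand of Ccr8, was lower by 2.69 ± 0.192, and Spp1 (osteopontin), an adhesive cytokine, by 2.44 ± 0.272. Ccl5, which attracts T cells, was lower by 1.90 ± 0.156, and Xcl1, which attracts dendritic cells, by 0.81 ± 0.142. The receptors ran the other way: of 15 measured inflammatory chemokine receptors, 8 were higher and 2 lower. Ccr8 measured 4.70, 4.98, 5, 4.65 and 5.06 on the Treg arrays and 3.22, 3.35, 3.44, 2.94 and 3.19 on the Teff arrays. It was higher by 1.65 ± 0.124 (adjusted p = 1.03e-05), so that Ccr8 and its ligand Ccl1 pointed in opposite directions, and the groups did not overlap. Ccr3 (2.11 ± 0.248), Ccrl2 (2.01 ± 0.134), Ccr2 (1.14 ± 0.231) and Cxcr3 (1.03 ± 0.185) were higher too. Cxcr6, which guides effector cells into tissue, was lower by 2.53 ± 0.199 and Cx3cr1, the fractalkine receptor, by 1.23 ± 0.193. The Treg mean of Cx3cr1 was dim (3.39). A less bright probe set of Cx3cr1, dim in both groups, differed by -0.03 without a call (adjusted p = 0.969).

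Genes of lymphoid homing held 2 higher and 5 lower of 16. Gpr15, a receptor for homing to the colon, was higher by 0.97 ± 0.185. Gpr183, which positions cells at the edge of follicles, was lower by 1.04 ± 0.111. Ccr7, the receptor for lymph node chemokines (-0.85 ± 0.264), and S1pr1, the exit receptor (-0.27 ± 0.219), were not called. Integrin chains also divided, with 3 higher and 5 lower of 17, or 3 lower without Treg array 1 or 5. Itgae, Itgam (1.90 ± 0.114) and Itga6 (0.96 ± 0.152) were higher. Itgb1, the shared beta 1 chain (-1.25 ± 0.169), and Itgal, the alpha chain of LFA-1 (-0.73 ± 0.107), were among those lower.

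The killer cell lectin-like receptors, a family of NK cell receptors that activated T cells also carry, gave 1 of the 20 largest rises and 2 of the 20 largest falls. Klrg1, a receptor for cadherins, measured 10.60, 10.42, 10.14, 10.54 and 10.45 on the Treg arrays and 6.46, 6.71, 6.86, 6.21 and 6.99 on the Teff arrays. Klrd1 (CD94), which pairs with NKG2 chains to read nonclassical class I molecules, measured 3.77, 3.56, 4.03, 4.54 and 3.20 on the Treg arrays and 8.00, 8.05, 8.85, 8.48 and 8.32 on the Teff arrays. The groups did not overlap for either gene, and Klrd1 was dim on every Treg array but array 4. Klrg1 was higher by 3.78 ± 0.152 (adjusted p = 1.39e-07) and Klrd1 lower by 4.52 ± 0.236 (adjusted p = 6.83e-07). Klrc1 (NKG2A), the partner of Klrd1, was lower by 2.79 ± 0.296 and Klrk1 (NKG2D) by 2.07 ± 0.277. The list held 1 higher and 4 lower of 13 (7.69% and 30.8%, beside 5.1% and 3.82% of all genes). 2 further NKG2 genes, Klrc2 (0.01 ± 0.107) and Klrc3 (-0.07 ± 0.125), were not called. Of the 13 receptors 7 were dim in both groups, Klrc2 and Klrc3 among them.

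Granzymes also went in both directions, and the list of cytotoxic effectors held 4 higher and 4 lower of 16. Gzmk, a granzyme with trypsin-like activity, measured 6.26, 6.52, 6.32, 6.16 and 6.36 on the Treg arrays and 8.94, 9.41, 9.83, 9.14 and 9.54 on the Teff arrays. It was lower by 3.05 ± 0.156 (adjusted p = 5.6e-07), against the rise of Gzmb. Gzmc (2.24 ± 0.206) and Gzmf (0.55 ± 0.116) were higher, although Gzmf was dim in both groups, and Gzma (0.59 ± 0.303) was not called. Gzmb, Gzmc and Gzmf are neighbours of near sequence in 1 gene cluster, so a probe set of 1 may also read the others.

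Receptors of the interleukin-1 family held 2 higher and 3 lower of 13, with 1 to 3 higher when 1 array was left out. Il1rl1 (ST2), the receptor for the alarmin interleukin-33, was higher by 1.17 ± 0.208. Il1r1, the signalling receptor for interleukin-1, measured 4.90, 4.87, 5.30, 5.08 and 4.93 on the Treg arrays and 7.19, 6.85, 7.25, 7.39 and 6.22 on the Teff arrays. It was lower by 1.97 ± 0.199 (adjusted p = 9.76e-05), Il1rl2, the interleukin-36 receptor, by 2.21 ± 0.209, and Il18rap, a chain of the interleukin-18 receptor, by 0.84 ± 0.119. Il1rap, the chain that several of these receptors share, differed by -0.15 ± 0.161 without a call.

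TGF-beta receptors were also uneven. Tgfbr3, a coreceptor also named betaglycan, measured 5.93, 5.68, 5.69, 5.26 and 5.26 on the Treg arrays and 9.40, 9.66, 9.27, 9.27 and 8.85 on the Teff arrays. It was lower by 3.72 ± 0.17 (adjusted p = 2.34e-07) with no overlap, and Tgfbr2, which binds the ligand, was lower by 1.24 ± 0.139. Tgfbr1, the chain that passes the signal on, was higher by 1.03 ± 0.179. The signal carriers Smad2 (-0.03 ± 0.102), Smad3 (-0.19 ± 0.133) and Smad4 (-0.45 ± 0.153) were not called. A less bright probe set of Smad4 was called (-0.75, adjusted p = 0.0154). The list held 2 higher and 6 lower of 21, and the higher count was 1 without Treg array 1, 2 or 5 or Teff array 1.

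Genes that set the level of cyclic AMP, a messenger that dampens T cells, differed on the side of its making and its breakdown. The list of adenosine and cyclic AMP genes held 5 higher and 6 lower of 24. Pde3b, a phosphodiesterase that Foxp3 is known to repress, measured 7.35, 7.06, 7.76, 7.03 and 7.16 on the Treg arrays and 10.68, 10.39, 10.42, 10.46 and 9.50 on the Teff arrays. Teff array 5 was the lowest Teff array by far, and still above each Treg array. Pde3b was lower by 3.02 ± 0.216 (adjusted p = 7.04e-06), and the phosphodiesterases Pde7a and Pde4d were lower by 2.38 ± 0.125 and 0.97 ± 0.176. The adenylate cyclases Adcy6 (-1.47 ± 0.165) and Adcy7 (-0.86 ± 0.127), which make the messenger, were lower too. Crem, a transcription factor of this pathway, was higher (1.84 ± 0.225), as was Ada, adenosine deaminase (1.09 ± 0.15), and the adenosine receptors Adora2a (0.01 ± 0.206) and Adora2b (0.04 ± 0.154) were not called. Adora2b was dim in both groups.

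Most genes of dividing cells were higher in Treg cells. Of 30 genes of mitosis, the spindle and the kinetochore, 27 were higher and none lower, with a median of 1.45. Of 30 genes of DNA replication and nucleotide supply, 24 were higher and none lower, with a median of 0.97. Leaving out Treg array 3 or Teff array 2 lowered the first count to 23, and leaving out Teff array 4 raised it to 30. Aurkb, a kinase of chromosome segregation, was higher by 1.95 ± 0.202, Ube2c, which tags cyclins for destruction at the end of mitosis, by 1.71 ± 0.234 and Cdk1, the kinase that starts mitosis, by 1.63 ± 0.239.

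Cdk1 measured 9.22, 9.05, 9.36, 9.75 and 8.75 on the Treg arrays and 7.28, 7.02, 8.28, 7.82 and 7.61 on the Teff arrays. Ube2c measured 10.99, 10.87, 11.35, 11.83 and 10.78 on the Treg arrays and 8.96, 9.06, 9.92, 9.64 and 9.70 on the Teff arrays. Levels varied within each group, with Teff arrays 1 and 2 lowest for both genes and Treg array 4 highest. The mean of the 30 mitosis genes lay between 8.24 and 9.12 on the Treg arrays and between 6.76 and 7.71 on the Teff arrays, so the groups stayed apart. Among replication genes, Mcm10 was higher (1.67 ± 0.154), as were Cdc45 (1.61 ± 0.212) and Gins1 (1.59 ± 0.181), parts of the helicase that opens DNA. Tk1, which recycles thymidine, was higher too (1.51 ± 0.174). Mcm5 (0.83 ± 0.261) and Pold1 (0.41 ± 0.15) were not called, and Treg array 4 was the lowest Treg array for Mcm5. Less bright probe sets of Mcm5 were called higher, by 1.27 (adjusted p = 0.000432) and 1.08 (adjusted p = 0.0162).

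The promoters of many mitotic genes carry 2 short elements, the CCAAT box and the cell cycle genes homology region (CHR), and genes of replication more often carry sites for E2F factors. Since these genes moved together, their upstream windows were searched on both strands for CCAAT, for the CHR letters TTTGAA and TTCGAA, and for 4 E2F spellings (TTTCGCGC, TTTGGCGC, TTTCCCGC and TTTGCCGC). The windows hold the 250 bases before the RefSeq start of the gene in assembly GRCm38.p6. 25 of the 30 mitosis genes and 25 of the 30 replication genes have one. Ube2c and Cdk1 are shown, since both were among the larger rises and each holds both elements. Capitals mark the CCAAT box (or ATTGG on the other strand), the CHR (or TTCAAA) and the E2F letters, and 2 boxes of Ube2c overlap each other.
Ube2c, upstream window at chr2:164769679-164769928, plus strand: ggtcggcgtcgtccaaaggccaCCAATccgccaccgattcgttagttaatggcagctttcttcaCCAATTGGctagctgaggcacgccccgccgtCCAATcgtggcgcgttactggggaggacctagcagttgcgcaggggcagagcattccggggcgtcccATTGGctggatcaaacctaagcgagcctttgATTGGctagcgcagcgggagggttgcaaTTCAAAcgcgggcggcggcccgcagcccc
Cdk1, upstream window at chr10:69352913-69353162, minus strand: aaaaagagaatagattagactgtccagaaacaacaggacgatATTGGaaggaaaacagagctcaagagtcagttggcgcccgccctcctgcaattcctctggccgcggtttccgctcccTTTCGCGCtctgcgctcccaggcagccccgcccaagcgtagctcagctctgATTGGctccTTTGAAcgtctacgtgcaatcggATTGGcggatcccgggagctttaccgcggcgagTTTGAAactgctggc

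In these letters, Ube2c has 1 CHR, which begins 29 bases before the start, and Cdk1 has 2, at 71 and 15 bases. Cdk1 also holds the E2F letters TTTCGCGC, which begin 131 bases before the start, and it is the 1 mitosis window with such letters. The CCAAT box was found in 20 of the 25 mitosis windows (80%), 14 of the 25 replication windows (56%) and 34.5% of all 27025 windows. The CHR was found in 9 mitosis windows (36%), 5 replication windows (20%) and 17.4% of all windows. The E2F letters stood in 1 mitosis window (4%), 6 replication windows (24%) and 1.91% of all. A match describes these letters only and says nothing of what binds there.

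Regulators of the step into the cycle followed, with 9 of 23 higher and none lower. Ccne2, the cyclin that opens replication, was higher by 1.41 ± 0.298, and the factors E2f7 and E2f8, which shut the replication genes down again, by 1.63 ± 0.177 and 1.55 ± 0.171. The inhibitor Cdkn2c was higher too (1.12 ± 0.127), while Cdkn1b, another inhibitor, differed by -0.17 ± 0.183 without a call. Without the 3 arrays that stood apart, 14 of the 23 were higher.

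**Figure D3:**
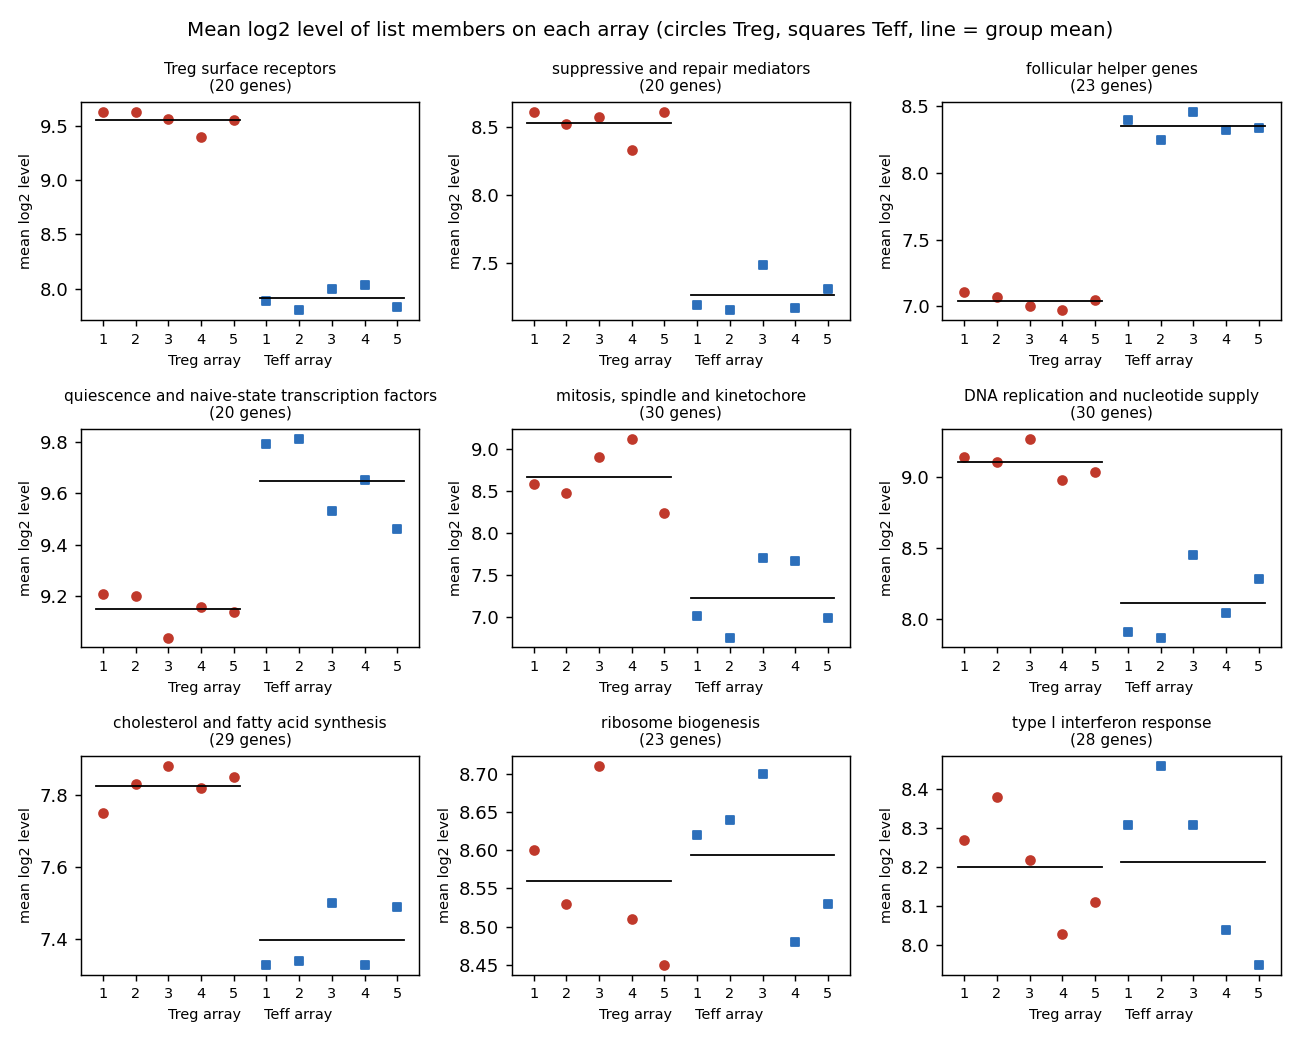
Mean log2 level of the members of 9 gene lists (vertical axis) on Treg arrays 1 to 5 (red circles) and Teff arrays 1 to 5 (blue squares), with the group mean as a line. The Treg surface list lies between 9.40 and 9.63 on the Treg arrays and 7.80 and 8.03 on the Teff arrays, the Tfh list the other way, and the ribosome biogenesis and type I interferon lists overlap.

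Metabolic genes differed by pathway. Of 29 genes of cholesterol and fatty acid synthesis, 12 were higher and none lower. Among them were Mvd (1.26 ± 0.17), Idi1 (1.21 ± 0.177) and Cyp51 (1.01 ± 0.13), enzymes of sterol synthesis. Acaca (-0.02 ± 0.104) and Fasn (0.03 ± 0.171), enzymes of fatty acid synthesis, were not called, nor was Srebf2, a factor that drives sterol genes (0.11 ± 0.185). In glycolysis and the hypoxia response 10 of 27 were higher and 1 lower (37% and 3.7%, beside 5.1% and 3.82% of all genes). The lower gene was Pdk1, a kinase that inhibits pyruvate dehydrogenase (-1.13 ± 0.173). Slc2a3, a glucose carrier (1.35 ± 0.119), Aldoc (1.6 ± 0.2), P4ha1, a hypoxia-induced hydroxylase of collagen (1.65 ± 0.12), and Hk2 (1.03 ± 0.173) were higher, whereas the carrier Slc2a1 (0.07 ± 0.215) was not called.

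The machinery of respiration and protein turnover was compared in the same way. Nuclear subunits of oxidative phosphorylation held 2 higher of 28, proteasome subunits 6 higher of 29 and genes of the unfolded protein response 3 higher of 25. These are 7.14%, 20.7% and 12.0% of the measured members, beside 5.1% of all genes. Leaving out 1 array gave 1 to 7 calls in respiration. None of the 3 calls in the unfolded protein response remained without Treg array 1, Treg array 3 or Teff array 1, and the count rose to 5 without Teff array 3 or 5. For the proteasome the count fell to 3 without Treg array 3, Teff array 1 or Teff array 2 and rose to 8 without Teff array 5. Psmb7 (0.87 ± 0.142) and Psmb9, a subunit of the immunoproteasome (0.49 ± 0.0882), were among those higher. Ribosome biogenesis held none higher and 1 lower of 23 (0 lower without Treg array 5 or Teff array 1, 2 or 3, and 2 without Teff array 5), with Ncl (0.21 ± 0.255), Npm1 (-0.03 ± 0.227) and Fbl (-0.03 ± 0.109) not called. The 1 lower gene is 4.35% of that list, beside 3.82% of all genes.

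GTPases that interferon gamma induces were higher in 5 of 11 cases and lower in none. Gbp2b and Gbp3 are guanylate-binding GTPases, which attack membranes around pathogens. Gbp2b, which is not one of the 11, measured 6.74, 6.99, 6.61, 6.33 and 6.55 on the Treg arrays and 2.91, 2.66, 3.47, 2.88 and 2.58 on the Teff arrays. It was higher by 3.75 ± 0.173 (adjusted p = 2.41e-07) with no overlap. Of the 11, Gbp3 (2.31 ± 0.212), Iigp1 (1.46 ± 0.298), Gbp2 (1.02 ± 0.207) and Igtp (0.76 ± 0.103) were among those higher, and Gbp4 (-0.15 ± 0.158), dim in both groups, was not called. Among 28 genes of the type I response, 2 were higher and 1 lower (0 lower without Treg array 1 or Teff array 1, and 3 without Teff array 5), and Ifit1 (0.02 ± 0.329), Ifit3 (0.14 ± 0.232) and Mx1 (-0.29 ± 0.232) were not called. The type I calls are 7.14% higher and 3.57% lower, beside 5.1% and 3.82% of all genes. Since the guanylate-binding genes are close relatives, probe sets of this family may share transcripts.

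Of 19 genes of DNA methylation, 5 were higher and none lower. Uhrf1, which brings the maintenance enzyme to replicated DNA, was higher by 1.43 ± 0.198 and that enzyme, Dnmt1, by 0.55 ± 0.105. The stress genes Gadd45g (1.15 ± 0.155) and Gadd45b (1.03 ± 0.127) were higher as well, and Dnmt3a (0.11 ± 0.161) and Dnmt3b (0.13 ± 0.0954), which set new methylation, were not called. A list of 29 genes held the Polycomb complexes, which keep genes silent, and demethylases of histone H3. Of these, 2 were higher (6.9%) and 2 lower (6.9%), beside 5.1% and 3.82% of all genes. The lower count was 0 without Treg array 3 or Teff array 1 or 2. Ezh2, the methyltransferase of histone H3, differed by 0.74 ± 0.21, Eed by 0.30 ± 0.108 and Suz12 by 0.11 ± 0.326, with no call. Phc1 (0.65 ± 0.131) and Asxl1 (0.55 ± 0.116) were higher.

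Some genes of signalling below the T cell receptor were lower, and signalling itself was not measured. Of 29 genes, 2 were higher and 7 lower (6.9% and 24.1%, beside 5.1% and 3.82% of all genes), with a median of -0.24. The thymocyte selection gene Themis (-1.26 ± 0.228) and the phosphatase gene Ptpn22 (-0.75 ± 0.149) were lower, and Ubash3b (1.04 ± 0.143) and Sla (0.60 ± 0.0888) were higher. The receptor's own chains Cd3e (-0.05 ± 0.14) and Cd247 (-0.09 ± 0.152) were not called. A less bright probe set of Cd247 was called (-0.71, adjusted p = 0.0494). The lower count ranged from 4 without Treg array 3 to 8 without Teff array 5, and it was 11 without the 3 arrays that stood apart. The higher count was 4 without Teff array 5 and without the 3 arrays. Early response factors held none higher and 4 lower of 20, with 2 higher without Teff array 5. Among them Ier3 was lower by 2.40 ± 0.207 and Egr3 by 1 ± 0.124, while Fos (0.00 ± 0.341) and Fosb (-0.15 ± 0.124) were not called. Fosb was dim in both groups. A less bright probe set of Egr3 differed by -0.14 without a call (adjusted p = 0.831). In the NF-kappaB list, Bcl3 (0.90 ± 0.151) and Nfkb2 (0.72 ± 0.128) were higher, the only called members of 20 (10%, beside 5.1% of all genes). Another probe set of Nfkb2, at means of 7.17 in Treg and 7.03 in Teff, differed by 0.14 without a call (adjusted p = 0.751).

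Smaller groups gave single genes of large difference. Among T helper factors, 2 of 19 were higher, Zbtb32 (1.17 ± 0.179) and Irf8 (1.11 ± 0.198), and 5 lower, Eomes, Bcl6, Ascl2, Tox2 and Pou2af1. In the S100, annexin and galectin group, 9 of 24 were higher and 2 lower. Capg, which caps actin filaments (1.71 ± 0.202), and Lmna, a protein of the nuclear lamina (1.24 ± 0.203), were higher. Both are on this list but belong to none of the 3 families. A less bright probe set of Lmna differed by 0.21 without a call (adjusted p = 0.658), and another was called (0.76, adjusted p = 0.0321). Anxa1, an annexin that limits inflammation, was lower (-1.84 ± 0.317). The count of 9 higher members fell to 5 without Treg array 3 or Teff array 1. Of 29 genes of migration and the cytoskeleton, 3 were higher (6 without Teff array 5) and 2 lower. The 3 and 2 are 10.3% and 6.9% of the list, beside 5.1% and 3.82% of all genes. Coro2a, an actin-binding coronin (2.96 ± 0.133), and Myo1e, a myosin (1.66 ± 0.147), were higher, and Cnn3, a calponin (-2.59 ± 0.375), was lower.

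Of 16 semaphorins, plexins and neuropilins, Plxnd1, a receptor for semaphorins, was higher (2.02 ± 0.186) and Sema4a lower (-1.52 ± 0.142). Each is 6.25% of the list, beside 5.1% of all genes higher and 3.82% lower. Among 18 genes of anergy and exhaustion, 3 were higher and 4 lower, and Rnf128 (GRAIL), a ubiquitin ligase of anergic cells, was lower by 1.5 ± 0.201. The Bcl2 family, which decides on cell death, held 3 higher, Bid (1.16 ± 0.123) among them, and 1 lower of 15, with 0 to 2 lower when 1 array was left out. Amino acid carriers and their stress response held 3 higher and 1 lower of 20, from 1 higher without Treg array 3 or Teff array 1 to 6 without Teff array 5, and Phgdh, which starts the synthesis of serine, was higher (0.73 ± 0.131). The shares higher and lower were 20% and 6.67% in the Bcl2 family and 15% and 5% in the amino acid list. Over all genes they were 5.1% and 3.82%.

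Where a list held none in 1 direction, the limma fit was also read at an unadjusted p under 0.05. At that level 0 members were lower among the Treg surface receptors, the mitosis, replication and sterol lists, the GTPases, and the respiration and proteasome lists, and 1 each among the mediators of suppression, the G1 regulators, the unfolded protein response and the DNA methylation genes. None was higher among the naive-state factors or the chemokines, 3 were among the early response factors and 1 in ribosome biogenesis. In the NF-kappaB list 1 was lower. Unadjusted, 20.8% of all genes passed.

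**Figure D4:**
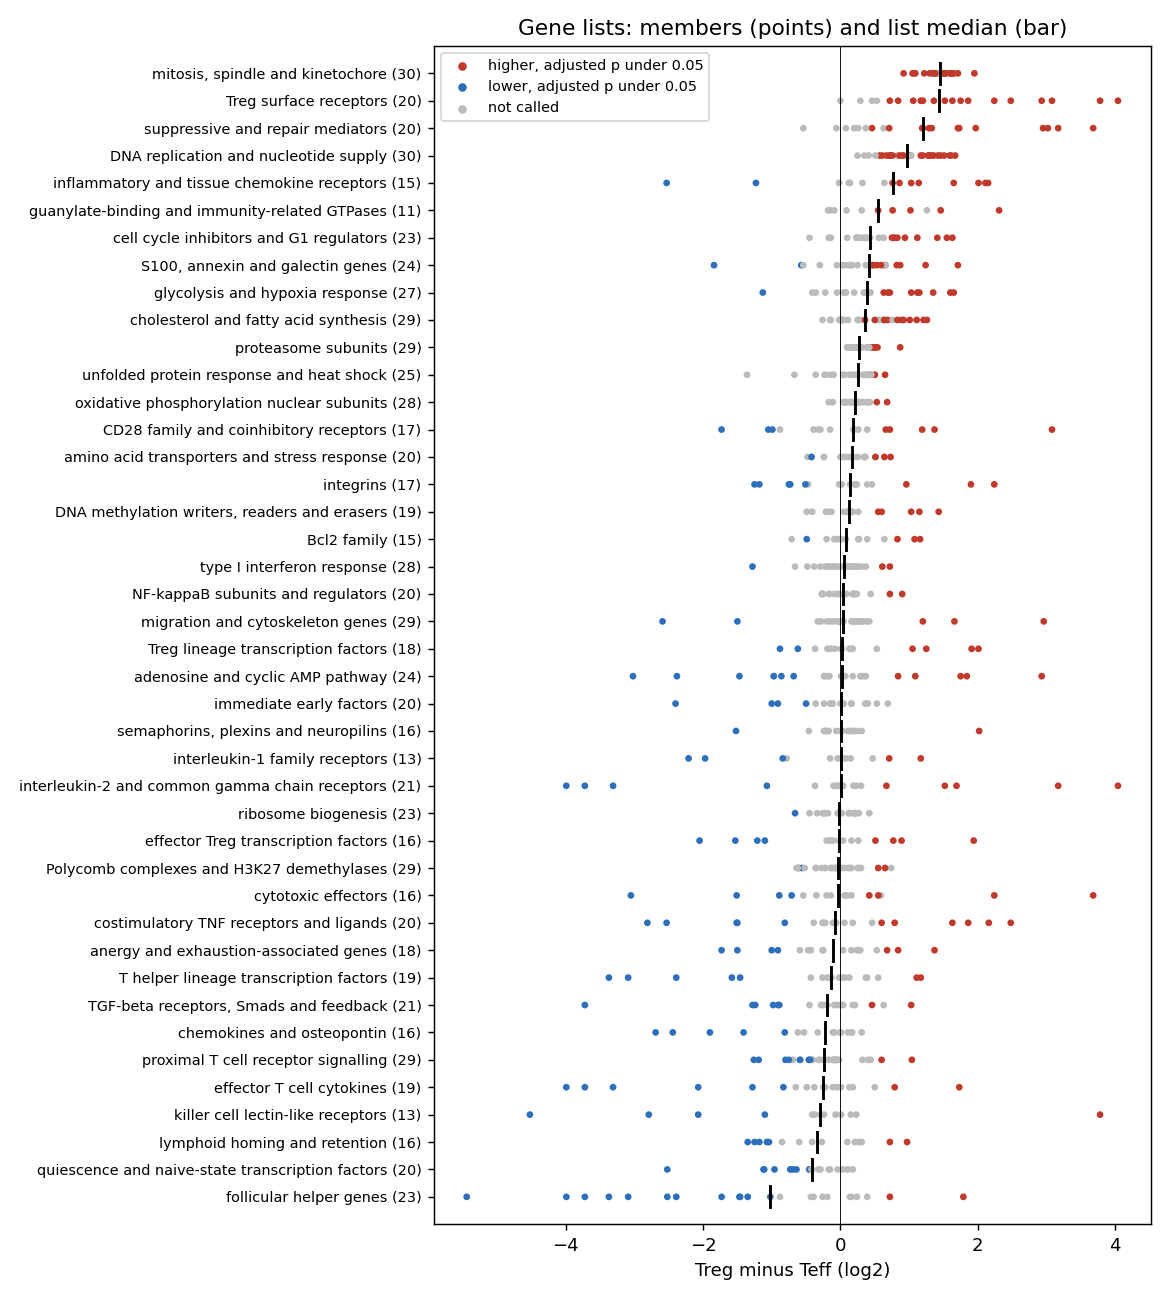
Treg minus Teff difference (log2, horizontal axis) of the members of 42 gene lists, 1 row a list with the number measured in brackets. Red points are called higher, blue called lower, grey not called, and the black bar is the list median. Mitosis and Treg surface genes lie furthest to the right and Tfh genes furthest to the left.

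Further genes were among the 20 largest rises and 20 largest falls. Neb, the giant muscle protein nebulin, measured 6.57, 5.92, 6.46, 7.32 and 6.64 on the Treg arrays and 3.26, 2.85, 3.35, 4.01 and 2.28 on the Teff arrays. Dusp4, a phosphatase that turns off MAP kinases and 1 of the mediators counted above, measured 9.67, 9.62, 9.77, 9.82 and 9.45 on the Treg arrays and 6.59, 6.69, 7.07, 6.71 and 6.52 on the Teff arrays. The groups stood apart for both, and Neb was dim on all Teff arrays, with differences of 3.43 ± 0.308 and 2.95 ± 0.12. Csrp2, a LIM-domain protein (2.74 ± 0.226), Ecm1, an extracellular matrix protein (2.72 ± 0.278), Epcam, an epithelial adhesion molecule (2.60 ± 0.166), and Snx9, a sorting nexin of endocytosis (2.55 ± 0.112), were higher. A less bright probe set of Epcam differed by 0.25 without a call (adjusted p = 0.445). Gpld1, which cleaves GPI anchors, was higher by 2.34 ± 0.274 and Itih5, of the inter-alpha-trypsin inhibitor family, by 2.74 ± 0.258.

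On the side of the falls, Tdrp, named for its role in the testis, measured 3.17, 4.18, 3.24, 3.21 and 3.41 on the Treg arrays and 7.95, 8.20, 7.69, 7.40 and 8.05 on the Teff arrays. App, the amyloid precursor protein, measured 3.95, 3.37, 3.91, 3.78 and 3.63 on the Treg arrays and 6.92, 7.35, 7.61, 6.63 and 6.84 on the Teff arrays. Slc16a5, of the monocarboxylate carrier family, was lower by 3.66 ± 0.267, Hs3st3b1, which sulfates heparan sulfate, by 3.41 ± 0.114 and Pdlim4, a protein that binds actin filaments, by 3.34 ± 0.249. The less bright probe sets of Hs3st3b1 differed by -0.30 to -0.09 without a call. Tdrp (-4.41 ± 0.208), App (-3.34 ± 0.187), Slc16a5 and Hs3st3b1 had dim mean levels in the Treg group, so that these falls may be compressed. H2-Q1, a nonclassical class I gene, was lower by 2.97 ± 0.193, and since class I genes are near copies of each other its value is uncertain.

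Markers of other cells were measured beside these differences. Treg array 4 was high in genes of plasma cells and B cells, with Jchain at 9.60 against 3.46 to 4.50 on the other Treg arrays, and in the haemoglobin gene Hba-a1, at 8.37 against 3.21 to 3.89. The mean of the 6 plasma cell markers was 7.16 on this array, 5.71 to 5.98 on the other Treg arrays and 5.76 to 6.59 on the Teff arrays. Jchain had a mean of 5.91 over the Teff arrays. Of 13 B cell markers, 2 were higher and 2 lower, and the list mean ran from 4.38 to 5.11 in Treg and from 4.53 to 5.11 in Teff. Cd22 (-2.15 ± 0.114), on this list, and Pou2af1, named above and not on this list, are expressed by B cells and were lower in Treg. The differences on the B cell list reached 1.64 in the other direction, and their median was 0.01.

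Plasmacytoid dendritic cell markers were lower in 4 of 14 cases and higher in 2 (Irf8 and Ccr9), with list means of 5.35 to 5.51 on the Treg arrays and 5.62 to 6.31 on the Teff arrays. The lower genes were Siglech, Spib, Dntt and Klk1, and Klk1 measured 2.64, 2.54, 2.75, 3.01 and 2.42 on the Treg arrays and 4.77, 5.76, 5.49, 3.86 and 6.97 on the Teff arrays. Of 21 macrophage and dendritic cell markers, 1 was higher, Itgam, and 2 lower, Tyrobp (-1.73 ± 0.372) among them. These markers are 4.76% and 9.52% of the list, beside 5.1% and 3.82% of all genes. Without Treg array 4, 5 were lower, and 6 were without the 3 arrays that stood apart. List means were 4.84 to 5.76 and 5.18 to 6.01. Spp1 and Cx3cr1, named above, are also made by such cells.

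Of 8 NK cell markers 2 were lower, Eomes (-1.58 ± 0.156) and Klrb1c (-1.10 ± 0.183), and Ncr1 was dim at 2.78 to 3 in Treg and 2.86 to 3.41 in Teff. The list means were 4.46 to 4.64 and 4.75 to 4.96. Of 4 CD8 T cell markers, Crtam (-1.37 ± 0.173) and Eomes were lower, and Cd8a (0.08 ± 0.174) and Cd8b1 (-0.05 ± 0.15) were not called, with list means of 5.2 to 5.44 and 5.86 to 6.28. Among 10 neutrophil markers Mmp9 was higher (10% of the list, beside 5.1% of all genes). S100a8 differed by 0.05 ± 0.343, Elane by 0.25 ± 0.123 and Mpo by 0.17 ± 0.139, and the list means were 3.55 to 4.07 and 3.19 to 3.48. None of the 6 erythroid or the 12 stromal and endothelial markers was called. The list means were 3.21 to 4.54 and 3.33 to 4.08 for the former and 3.50 to 3.62 and 3.35 to 3.78 for the latter. Dim in both groups were 7 of the 10 neutrophil, 4 of the 6 erythroid and 9 of the 12 stromal and endothelial markers. The part of these cells in the falls of Klrd1, Klrc1, Spp1, Cx3cr1 and the Tfh genes, and in the rises of Mmp9 and Itgam, was not tested.

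**Figure D5:**
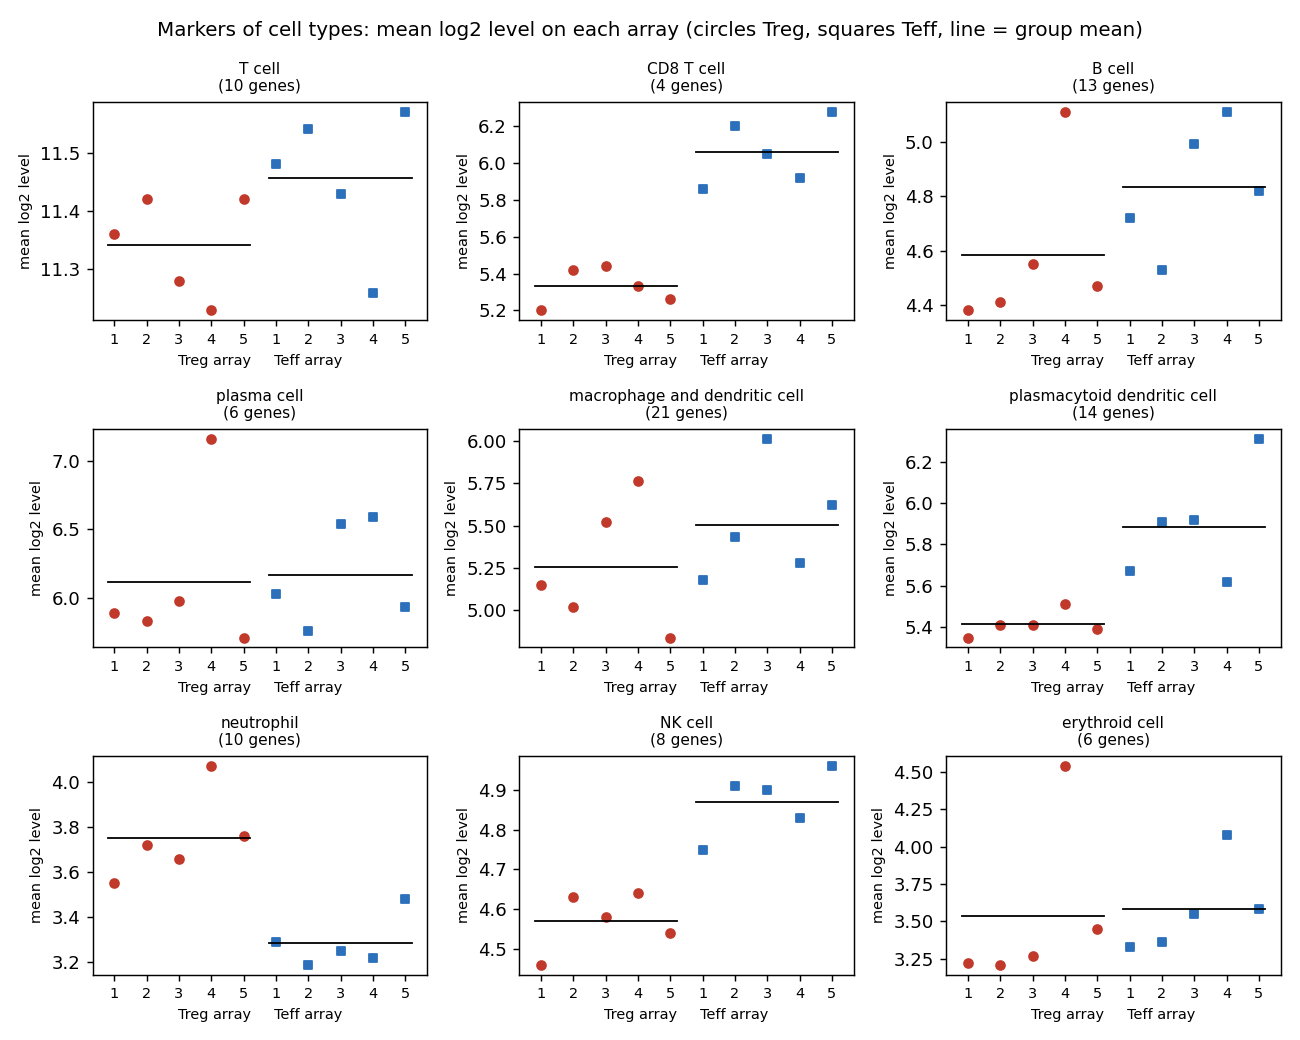
Mean log2 level (vertical axis) of 9 lists of cell type markers on Treg arrays 1 to 5 (red circles) and Teff arrays 1 to 5 (blue squares), with the group mean as a line. Treg array 4 is highest for plasma cell (7.16) and erythroid (4.54) genes, and the plasmacytoid list is higher on all Teff arrays than on any Treg array.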

How the data were processed

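Total RNA of sorted CD4 T cells was measured on Affymetrix arrays, and the deposited log2 values had been made by the authors with RMA, per the submitters' processing notes, which give no version. No scanner intensities were used, precision is limited by how many arrays there are, and array medians lay within 4.05 to 4.14. A further table of the authors holds the same Treg columns (equal within 5e-09) and 16 value columns that matched no label and were not used.

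Groups and array numbers came from the labels. Of 45101 probe sets, 64 controls were left out. Names came from the deposited gene columns, updated through RefSeq GRCm38.p6: 31982 probe sets by symbol, 540 by accession and 2978 by synonym, while 2956 kept the deposited name and 6581 had none. A gene was its brightest probe set over the 10 arrays. The fit used limma 3.58.1 (lmFit, then eBayes; R 4.3.3) without covariates and with Benjamini-Hochberg adjustment over 45037 probe sets, after a test on simulated data. Every adjusted p comes from this fit. The median standard error was 0.134.

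The comparison, its 42 gene lists and its 10 marker lists were chosen with earlier results of these data known. Genes were named by a rule: Foxp3, then the 20 largest rises and 20 largest falls among called genes without overlap, then per list up to 6 called members a direction and up to 4 not called, with marker genes free. Calls that an alternative ended were passed over. Some genes that the rule names are not reported here. Stat5a, Stat5b, Tnfsf4, Tnfsf9, Areg, Ebi3, Acaca, Fasn and Srebf2 lie outside this rule and were chosen after their values were seen. Alternatives were a replicate block, left-out arrays, array weights, 2 other scalings, a filter on dim probe sets, another variance model and other ways to sum up probe sets. Promoters came from RefSeq, and Python 3.11.15 with matplotlib 3.10.9 drew the figures.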

Additional observations from a re-analysis of the deposited data

Results flagged for a closer look

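Within each group of 5 arrays, every named gene was checked for 1 array far from the others (a gap to the nearest array of more than 0.71 of the group's range). Of 488 gene and group pairs checked, 32 showed such an array, where chance gives about 1 in 20. Treg array 4 was the array in 15 of them.

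In Treg array 4 the genes standing high were Hba-a1 (8.37), Jchain (9.60), Pou2af1 (5.97), Ikzf2 (11.96), Iigp1 (11.60) and Smad2 (8.25). Those standing low on it were Mcm5 (9.72), Uhrf1 (9.78), Epcam (6.95), Gpld1 (5.63), Il1rl1 (9.30), Ebi3 (8.79), Matn2 (5.71), Pdcd1 (6.40) and Phgdh (10.85). Teff array 5 stood low for Pde3b (9.50), Gbp3 (7.04), Itih5 (4.64), Ifit1 (5.84) and Npm1 (11.34) and high for Mmp9 (4.36), Pold1 (9.01), Lmna (6.66) and Klrc2 (2.52). Teff array 4 was high for Hba-a1 (7.37) and low for Cxcr5 (8.70).

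The other flags were spread over arrays. Dnmt1 was low on Teff array 2 (9.62) and Egr3 on Teff array 1 (8.75), Eed was low on Treg array 5 (9.25) and Il12a on Treg array 3 (2.77), P4ha1 was high on Treg array 3 (8.40) and Tdrp on Treg array 2 (4.18).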

How the results depend on the processing

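Probe sets called numbered 3052 in the reported fit. They ranged from 2060 to 4323 when each array was left out in turn, with 1214 to 2275 higher and 835 to 2048 lower in Treg, and genes called from 1286 to 2566. Leaving out Treg array 3 gave the 835 and leaving out Teff array 5 the 2048. With the replicate block the counts were 5353 probe sets (2635 higher, 2718 lower) and 2890 genes. The numbers were not taken as pairs, since the labels do not say what they stand for. Deviations of same-numbered arrays correlated at 0.044 for number 1 and 0.2185 to 0.5161 for the other 4. Arrays of different numbers correlated at -0.437 to 0.3829. Treg arrays 1 and 2 and Teff array 1 correlated best with another number, while Treg arrays 3 to 5 and Teff arrays 2 to 5 correlated best with their own. The block called more probe sets than the reported fit, so some genes not called here are called with it. Without the 3 arrays that stood apart the counts were 5948 probe sets (2908 higher, 3040 lower) and 3243 genes, and with array weights 5737 (3071 and 2666) and 3231. Of the 10 single arrays, leaving out Treg array 4 (3113) or Teff array 5 (4323) gave more calls and leaving out each of the other 8 gave fewer, and the cause was not tested. The share of higher calls was 57% in the reported fit, 61.9% after centring each array on its median and 48.9% without the 3 arrays. The other settings stayed within 1.5 times of each count.

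Of 302 called genes on the lists, 67 lost the call under at least 1 alternative, 58 of them when 1 array was left out, and these 67 are not named as higher or lower. None of the 174 called genes named reversed or lost its call under the alternatives that gave it a value, which follows from that choice. These were all 20, except 19 for Gzmf, which was left out with the dim probe sets. Of 70 named genes not called, 11 were called without the 3 arrays: Ccr7, Cd4, Ezh2, Ifng, Itgb8, Jchain, Mcm5, Pold1, Prf1, Smad4 and Tgfb1. Under other settings, Klf2 was called with the replicate block and without Teff array 3, Il6 without Teff array 1, and Tnfsf9 with the replicate block and when 1 probe set or the mean of the probe sets was fitted for each gene. With the block the unfolded protein response held 7 higher and 2 lower and the proteasome 11 higher.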
